A study of Manihot esculenta with 4 samples.

Results

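The most abundant transcripts of the cassava leaf were examined as a set of 210 genes. Members were chosen by level alone: 300 FPKM or more on average across the 4 libraries, a tag that carries a chromosome number, and a locus of at least 500 bases. FPKM values correct a fragment count for the length of the transcript and the size of the library. The files hold 27146 tags, of which 25494 met the conditions on tag and locus. A further 13 genes reached 300 FPKM but lay on short loci or on unplaced sequences and were left out. Cassava (Manihot esculenta) is a tropical root crop, and the leaves came from its cultivars KU50 and Xinxuan048, from control plants grown normally and from droughted plants. Each of the 4 groups (KU50 control, KU50 drought, Xinxuan048 control and Xinxuan048 drought) has 1 library, so no value has a replicate within its group. The labels state neither the length or strength of the drought nor the age or number of plants behind a library.

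In green leaves a small number of nuclear genes usually make up a large part of the messenger RNA. Genes for the chlorophyll-binding proteins of the light-harvesting antennae and for the small subunit of Rubisco, the enzyme that fixes carbon dioxide, are typical of this class. Under drought, stomata close and photosynthesis is limited; transcripts of photosynthesis are then often lower, and those of protective proteins such as dehydrins often higher. These statements are background. The deposited files pair no tag with a name or description, and 0 of the 27146 tags matched the RefSeq gene table used here. No member is therefore given a function, markers of leaf cell types could not be looked up, and members are described by tag, position and value.

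The libraries listed 24405 to 25336 genes, with FPKM totals between 611226 and 636034, and the number of fragments behind them is unknown. Loci under 500 bases, none of them members, took 8.96% of the FPKM sum in Xinxuan048 drought and between 1.82% and 2.24% in the other 3 libraries.

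The first question was how much of the leaf's transcript pool these genes held and whether that share differed under drought. In KU50 the members held 37.8% of the FPKM sum in the control and 27.2% in the drought library. In Xinxuan048 their part was 40.3% in the control and 24.8% in the drought library. Both drought libraries thus lay below both controls, by 10.5 percentage points in KU50 and by 15.5 in Xinxuan048. With 2 libraries per condition an exact two-sided permutation test cannot give a p below 0.333, which is the value it gave. Counted against loci of at least 500 bases with a chromosome number, the share was 28.3% in KU50 drought and 27.7% in Xinxuan048 drought, against 39.1% and 41.6% in the controls, so the drought libraries of the cultivars were closer on this count. FPKM carry no measure of total RNA, so less RNA of the members cannot be told apart from more RNA of other genes. Fewer cells of a type and less RNA per cell also cannot be told apart in these bulk samples.

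**Figure D1:**
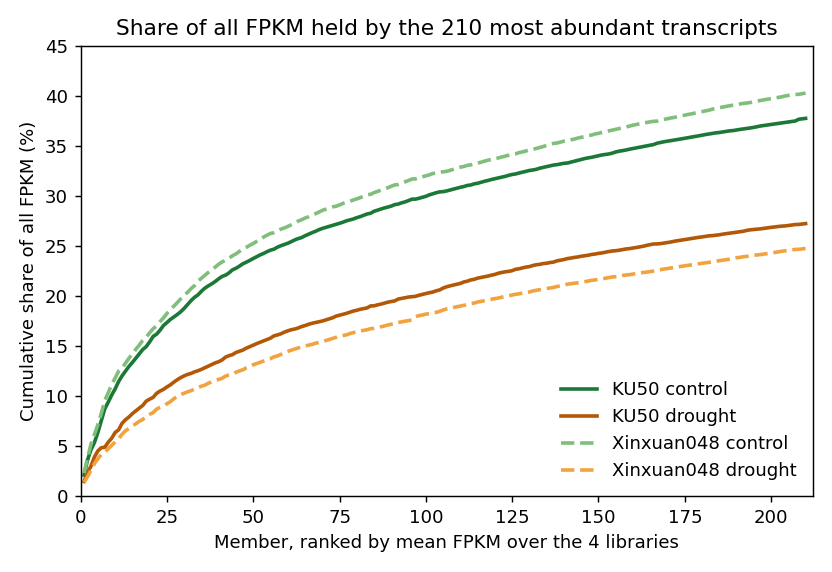
Cumulative share of all FPKM (vertical axis, percent) over the 210 members ranked by mean FPKM (horizontal axis), with 1 line per library. The control lines end at 37.8% and 40.3% and the drought lines at 27.2% and 24.8%, and the lines part within the first members.

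The pool was concentrated in few genes in control leaves and less so under drought. The 10 members of highest mean held 10.7% of the sum in the KU50 control and 6.37% in its drought library. The matching Xinxuan048 values were 11.8% and 5.43%. Their difference was 41.5% of the members' net difference in share in KU50 and 41.1% in Xinxuan048. The 52 members with a mean of at least 1000 FPKM accounted for 83.0% and 79.1% of it. In the controls these 52 held 24.1% of the sum in KU50 and 25.7% in Xinxuan048, where all members held 37.8% and 40.3%. Over all genes, 571 were enough to reach 50% of the sum in the KU50 control, against 1134 in its drought library. In Xinxuan048 it took 438 in the control and 915 in the drought library. Among the members alone, 29 and 30 held 50% of the members' FPKM in the controls, against 37 and 42 under drought in KU50 and Xinxuan048.

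MANES_15G086700, on chromosome 15 from 6335592 to 6336676, had the highest FPKM of any member in every library. Its KU50 libraries read 13485 FPKM (control) and 9028 (drought), and its Xinxuan048 libraries 14591 and 8543. The controls lay above the drought libraries without overlap, and the cultivars were near each other within a condition. On the scale of log2(FPKM + 1), which is used for every log2 value here, its drought differences were -0.58 in KU50 and -0.77 in Xinxuan048. The limma estimate over both cultivars was -0.68 ± 0.40 (SE, 4 libraries; unadjusted p = 0.164, adjusted p = 0.271), and -1.04 with TMM, a scaling by trimmed mean ratios. By itself this locus made up 2.12% of the sum in the KU50 control and 1.38% in the Xinxuan048 drought library. MANES_01G011500, on chromosome 1 from 2015240 to 2017292, followed with 9558 FPKM (control) and 5622 (drought) for KU50, and 9446 and 3639 for Xinxuan048. Its controls differed by 0.02 on the log2 scale, and its drought level was lower in Xinxuan048 than in KU50 by 0.63 (limma drought estimate -1.07 ± 0.37, SE; adjusted p = 0.127).

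The other 8 of the 10 members of highest mean had means between 3413 and 5736 FPKM. Among loci of at least 500 bases with a chromosome number, the controls of both cultivars had the same 10 loci at the top, and 9 of these were among the 10 members of highest mean. Of the controls' 10, 6 were among the 10 highest in KU50 drought and 7 in Xinxuan048 drought. The fourth by mean was the only one of the 10 above its control in a drought library, with 4578 FPKM in the control and 5569 in the drought library of KU50, and it was lower under drought in Xinxuan048, with 6013 and 4275. At the other end of the set, the last members inside the threshold had means of 305 and 303 FPKM and the first loci outside had 299.6 and 296. The inner pair had 276 and 293 FPKM in KU50 control, and the outer pair 382 and 252. The threshold thus cut a continuous range of levels.

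**Figure D2:**
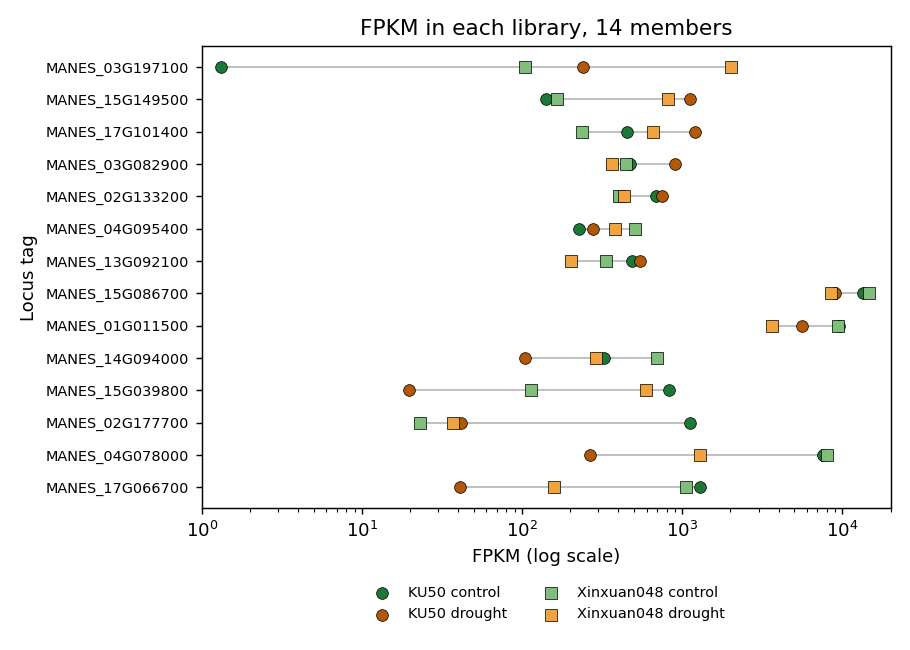
FPKM on a log axis for each of the 14 members named by tag in the text, ordered by their mean drought difference; circles are KU50, squares Xinxuan048, green control and orange drought, and the grey line spans the 4 libraries. MANES_15G086700 kept between 8543 and 14591 FPKM, while MANES_03G197100 spanned 1.33 to 2013.

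Most members were abundant in every library. Of the 210, 147 had at least 300 FPKM in every library. In the controls 195 members of KU50 and 199 of Xinxuan048 reached that level, and in the drought libraries 174 and 178. The highest library exceeded the lowest by a median factor of 1.90. The factor was over 2 for 91 members and over 10 for 5. These 5 were MANES_03G197100, MANES_04G078000, MANES_17G066700, MANES_15G039800 and MANES_02G177700, and each is described below by its values.

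The second question was how the members' own levels differed under drought. Of the 210, 143 were lower under drought in each cultivar and 34 higher in each, against 15.7% lower in both and 62.1% higher in both over all 19743 genes whose mean reached 1 FPKM. The median drought difference of the members was -0.35 in KU50 and -0.65 in Xinxuan048. Over all genes the medians were 0.30 and 0.37, so the members lay below them by 0.66 and 1.02. Measured from those medians, 177 members were on the lower side in both cultivars, against 35.6% of all genes. The scaling moves both sets together. A lower share of the sum in the members is a higher share in the other genes, so the background is not independent of the members. With equal totals over genes that are not members, 171 members were lower in both, against 26.1% of all genes. In that scaling 20 were higher in both, against 46.6%. With TMM the medians of all genes were -6.71e-05 in KU50 and 0.03 in Xinxuan048 and those of the members -0.70 and -1.04, with 179 members lower in both, against 34.1% of all genes, and 15 higher in both, against 37%.

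No member passed the limma test for a drought effect shared by the cultivars at an adjusted p of 0.05 (0 of 210, background 0.0456%), and the smallest adjusted p among them was 0.0632. This fit has 1 residual degree of freedom. At an unadjusted p of 0.05, 81 members were lower under drought, against a background of 6.38%, and 15 were higher, against 31.4%. Both counts include members whose mean reached 300 FPKM through the controls alone or the drought libraries alone, so they are a description only. Among the 147 members with at least 300 FPKM in every library, 54 were lower and 5 higher. The median level of the 81 was 859 FPKM in the control and 439 in the drought library of KU50, and 961 and 428 in those of Xinxuan048. For the 15 the KU50 medians were 320 and 814 FPKM and the Xinxuan048 medians 293 and 706. The adjusted count moved with the settings, for members and for all genes. With upper-quartile scaling 3 members passed, 1.43% of the members and 1.43% of all genes. With TMM 7 passed, 3.33% against 1.91% of all genes. When only loci of at least 500 bases with a chromosome number were fitted, 12 passed, 5.71% against 3.44%. When genes under a mean of 5 FPKM were left out, 27 passed, 12.9% against 5.29%, 20 of them lower and 7 higher.

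Without a test, the values themselves can be set side by side. Both drought libraries lay below both controls for 139 members (background 11.3%) and above both for 27 (background 50.8%). In KU50, 41 members were at least 2-fold lower (background 5.67%) and 11 at least 2-fold higher (background 11%). In Xinxuan048, 56 were at least 2-fold lower (background 2.55%) and 12 at least 2-fold higher (background 10.6%). At least 2-fold lower in both cultivars were 33 members, against a background of 1.45%. At least 2-fold higher in both were 9, or 4.29% of the members, which is near the background of 4.65%. All these counts include members whose mean reached 300 FPKM through the controls alone or the drought libraries alone. The same holds for the counts lower or higher in both cultivars, so all are a description only.

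**Figure D3:**
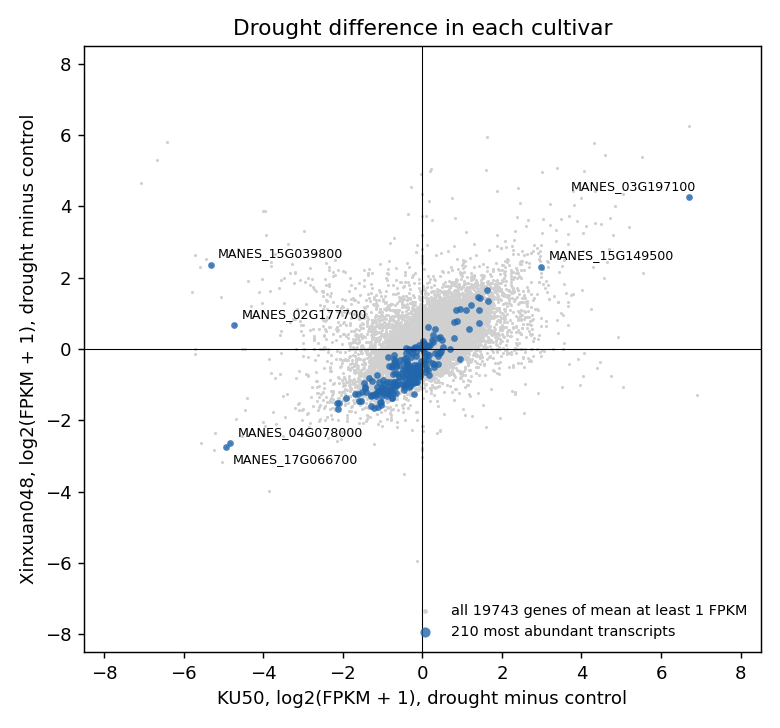
Drought minus control on the log2(FPKM + 1) scale in KU50 (horizontal) and Xinxuan048 (vertical), with the 210 members in blue over all 19743 genes in grey. Most members, 143, lie to the lower left of zero, and the labelled tags stand apart from the cloud.

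The 33 members at least 2-fold lower in both cultivars lay on 16 chromosomes and were spread over the range of levels, with 15 of them at means of at least 1000 FPKM. Their median level was 1276 FPKM in the control and 415 in the drought library of KU50, and 1059 and 407 in those of Xinxuan048. Their summed part was 9.56% without and 3.18% with drought in KU50, and 9.38% and 3.42% in Xinxuan048. Their difference was 60.7% of the members' net difference in share in KU50 and 38.3% in Xinxuan048. They were chosen for being lower, and members that were higher offset part of the net value. For all 143 members lower in both, the same measure was 122% and 108%.

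The lowest mean drought difference was that of MANES_17G066700, on chromosome 17 from 20606925 to 20608430. KU50 had 1289 FPKM (control) and 41.1 (drought), and Xinxuan048 had 1059 and 158. The controls were within a log2 difference of 0.28 of each other, and the drought levels were 31.4-fold lower in KU50 and 6.72-fold lower in Xinxuan048. Its mean reached 300 FPKM through the controls alone, so no test is given. MANES_04G078000, on chromosome 4 from 21627913 to 21628905, was the seventh member by mean. Its values were 7624 FPKM (control) and 267 (drought) for KU50, and 8076 and 1302 for Xinxuan048. Its level under drought was 28.5-fold lower in KU50 and 6.21-fold lower in Xinxuan048, with controls 0.08 apart on the log2 scale (limma estimate -3.73 ± 0.61, SE; adjusted p = 0.0641). Both loci were thus alike in the controls of the cultivars and lower under drought in KU50 than in Xinxuan048, by log2 differences of 1.91 and 2.28. No other of the 33 went below -2.13 in KU50 or -1.69 in Xinxuan048.

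Members that were higher under drought ran against the set. The 34 that were higher in both cultivars made up 3.14% of the sum without and 5.18% with drought in KU50, and 2.84% and 4.57% in Xinxuan048. Their median level was 371 FPKM without and 733 with drought in KU50, and 330 and 665 in Xinxuan048. None of them was among the 10 members of highest mean, and 5 had means of at least 1000 FPKM. The 9 that were at least 2-fold higher in both had means between 437 and 912 FPKM and lay on 6 chromosomes. Their summed part was 0.414% without and 1.29% with drought in KU50, and 0.372% and 1.30% in Xinxuan048. Some of these 9 reached a mean of 300 FPKM through the drought libraries alone, so these values are a description only.

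MANES_03G197100, on chromosome 3 from 27961109 to 27962074, had the highest drought difference of all members. KU50 had 1.33 FPKM (control) and 241 (drought), and Xinxuan048 had 104 and 2013. Its mean thus rested mostly on the Xinxuan048 drought library, and both drought libraries lay above both controls. The drought differences were 6.70 in KU50 and 4.26 in Xinxuan048, given with no test because this locus reached a mean of 300 FPKM through a single library. MANES_15G149500, on chromosome 15 from 11754110 to 11758525, came to 141 FPKM (control) and 1122 (drought) for KU50, and to 164 and 821 for Xinxuan048. Here the cultivars were close in each condition, and the drought level was 7.97-fold higher in KU50 and 4.995-fold higher in Xinxuan048, values given with no test because its mean reached 300 FPKM through the drought libraries alone. The other 7 were between 2.14-fold and 3.16-fold higher in KU50 and between 2.12-fold and 3.14-fold higher in Xinxuan048. Some of these 7 also had a mean under 300 FPKM in the controls, so their values are a description only.

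Within the set, the difference under drought was larger in the members of at least 1000 FPKM, while the classes below were near each other. The 52 members with means of at least 1000 FPKM had median drought differences of -0.70 in KU50 and -0.996 in Xinxuan048, and 44 of them were lower in both cultivars. The 68 members between 500 and 1000 FPKM had medians of -0.28 and -0.48, with 47 lower in both. The 90 members between 300 and 500 FPKM had medians of -0.22 and -0.48, with 52 lower in both. The classes were drawn with earlier results known. When members were chosen by their mean in the other cultivar alone, the medians were -0.34 in KU50 (220 loci) and -0.63 in Xinxuan048 (205 loci).

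**Figure D4:**
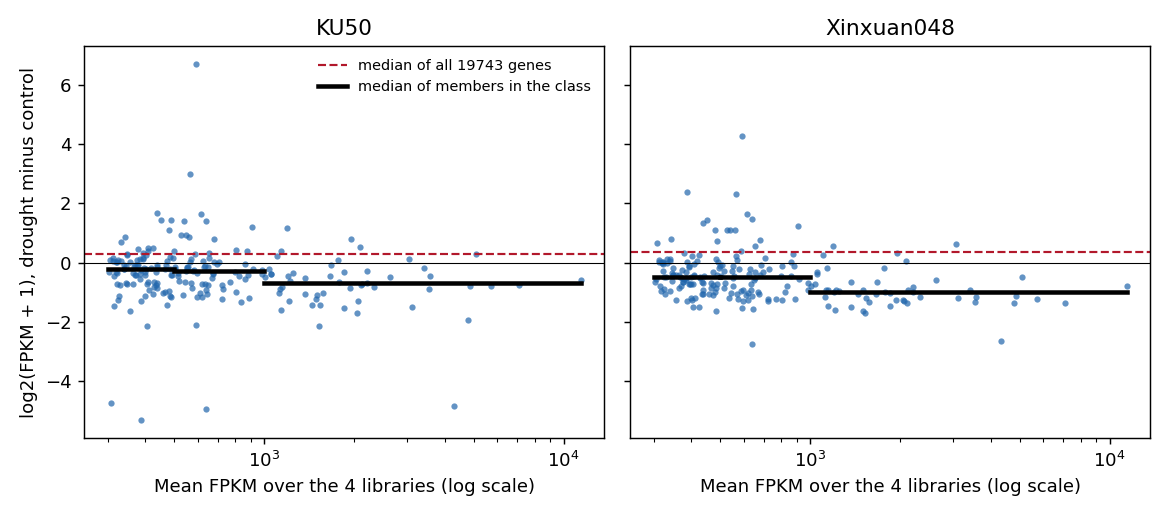
Drought minus control on the log2(FPKM + 1) scale (vertical) against mean FPKM on a log axis (horizontal) for the 210 members in KU50 (left) and Xinxuan048 (right). Black bars mark the medians of the classes 300 to 500, 500 to 1000 and at least 1000 FPKM, which are -0.22, -0.28 and -0.70 in KU50, and the dashed red line marks the median of all genes.

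The rule set a lower limit on the span of a locus and none above it. The members ranged from 565 to 16674 bases, with a median span of 2005 bases, against 3728 for all loci of at least 500 bases with a chromosome number whose mean reached 1 FPKM. Span counts introns too, whereas FPKM rest on the length of the spliced transcript. The 53 members of shortest span, 565 to 1161 bases, had median drought differences of -0.68 in KU50 and -0.77 in Xinxuan048. The 53 of longest span, 3332 to 16674 bases, had -0.21 and -0.42. Those of shortest span included 19 members with means of at least 1000 FPKM and those of longest span 4, so span and level moved together, and their separate parts in the difference were not tested.

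Members were found on all 18 chromosomes. Chromosome 15 had the most, 21, and chromosome 11 the fewest, 6. Relative to the loci on each chromosome whose mean reached 1 FPKM, chromosome 17 had 2.09 members per 100 loci and chromosome 9 had 0.611. Members with no other listed locus between them formed 8 pairs of 15 genes, with gaps of 1734 to 73345 bases. In 6 of these pairs both genes were lower under drought in both cultivars. Of the 15 genes 13 were so, where 68.1% of all members were, and a part of position was not tested. MANES_17G066700 was the first of a run of 3 members on chromosome 17 that ended at 20630039. The other two of that run stood at 6444 and 3023 FPKM without drought and at 3747 and 1038 with it in KU50. In Xinxuan048 they stood at 6347 and 2449 FPKM without and at 2881 and 886 with it. All 3 were lower under drought in both cultivars, by unlike amounts: the drought differences in KU50 were -4.94, -0.78 and -1.54. In a further pair on chromosome 17 the genes went opposite ways, with KU50 differences of 0.28 and -1.22 and Xinxuan048 differences of 0.38 and -1.64. Loci that lie side by side can be copies of a gene that share reads, which the files do not show, so values of such neighbours are uncertain.

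The third question was how the cultivars differed. Across the 210 members, Pearson's r of log2 levels was 0.866 between the controls and 0.860 between the drought libraries, against 0.622 between the KU50 libraries and 0.754 between the Xinxuan048 libraries. Spearman's rho, taken on ranks, was 0.900 and 0.846 against 0.644 and 0.626. The order of KU50 and Xinxuan048 thus depended on the measure. These values describe 4 libraries and have no p. The levels of 176 members were within 1.5-fold between cultivars in both conditions (background 58.8%). For 166 members the mean absolute log2 difference between cultivars was smaller than that between conditions (background 62.3%). The background holds genes of far lower level. The members' means had a median of 562 FPKM. For all loci fitting the conditions on tag and locus, from a mean of 1 FPKM, it was 10.5. The part of level in these counts, and in the 2-fold cultivar counts below, was not tested.

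In the limma test for a cultivar effect common to control and drought, 0 of 210 members passed at an adjusted p of 0.05 (background 0%), with a smallest adjusted p of 0.205. At an unadjusted p of 0.05, 7 members were higher in Xinxuan048 (background 4.49%) and 8 were lower (background 10.1%). In control leaves 138 members were higher in Xinxuan048 than in KU50, against 35.9% of all genes, with a median difference of 0.11 where all genes had -0.13. Under drought 81 members were higher in Xinxuan048, against 41.5% of all genes, and the medians were -0.08 for members and for all genes. With TMM both medians in the drought libraries were above 0, at 0.03 for members and 0.02 for all genes, and 52.9% of members and 52.3% of all genes were higher in Xinxuan048. Differences of at least 2-fold were few. In control 3 members were at least 2-fold higher in Xinxuan048 (background 2.41%) and 2 at least 2-fold lower (background 6.96%). Under drought 6 were at least 2-fold higher (background 3.08%) and 4 at least 2-fold lower (background 4.19%). Both Xinxuan048 libraries lay above both KU50 libraries for 18 members (background 8.52%) and below them for 11 (background 17.3%).

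At least 2-fold higher in Xinxuan048 in both conditions were 2 members, MANES_03G197100 and MANES_14G094000. That is 0.952% of the members, near the background of 0.836%. Neither would have reached a mean of 300 FPKM in KU50 alone, so the count describes how they became members. At least 2-fold lower in both conditions were 0 (background 1.58%). MANES_14G094000, on chromosome 14 from 7638794 to 7639879, read 325 FPKM (control) and 104 (drought) for KU50, and 697 and 291 for Xinxuan048. It was lower under drought in both cultivars, and Xinxuan048 drought lay just under KU50 control. Without Xinxuan048 its mean would not have reached 300 FPKM, so no test of its cultivar difference is given. MANES_17G101400, on chromosome 17 from 24268028 to 24269353, had the lowest common difference. Its KU50 levels were 452 FPKM (control) and 1204 (drought), and its Xinxuan048 levels 237 and 659. It was higher in KU50 in each condition by log2 differences of 0.93 and 0.87, and it was also among the 9 members with a drought level at least 2-fold above control in each cultivar. MANES_02G133200, on chromosome 2 from 9784316 to 9785123, differed by cultivar with little difference by drought. KU50 had 686 FPKM (control) and 754 (drought), and Xinxuan048 had 402 and 430, so the cultivars did not overlap. Its mean drought difference of 0.12 became -0.16 with upper-quartile scaling and -0.25 with TMM.

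Some members differed between cultivars in 1 condition more than in the other. MANES_04G095400, on chromosome 4 from 23234384 to 23238400, was at 226 FPKM in the KU50 control and 508 in that of Xinxuan048, a log2 difference of 1.17. Under drought it had 277 and 379 FPKM, a difference of 0.45. In KU50 alone its mean would not have reached 300 FPKM. MANES_13G092100, on chromosome 13 from 18009072 to 18010873, was at 486 FPKM in the KU50 control and 337 in that of Xinxuan048. Under drought it had 545 and 204 FPKM, a difference of -1.42. In Xinxuan048 alone its mean would not have reached 300 FPKM.

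**Figure D5:**
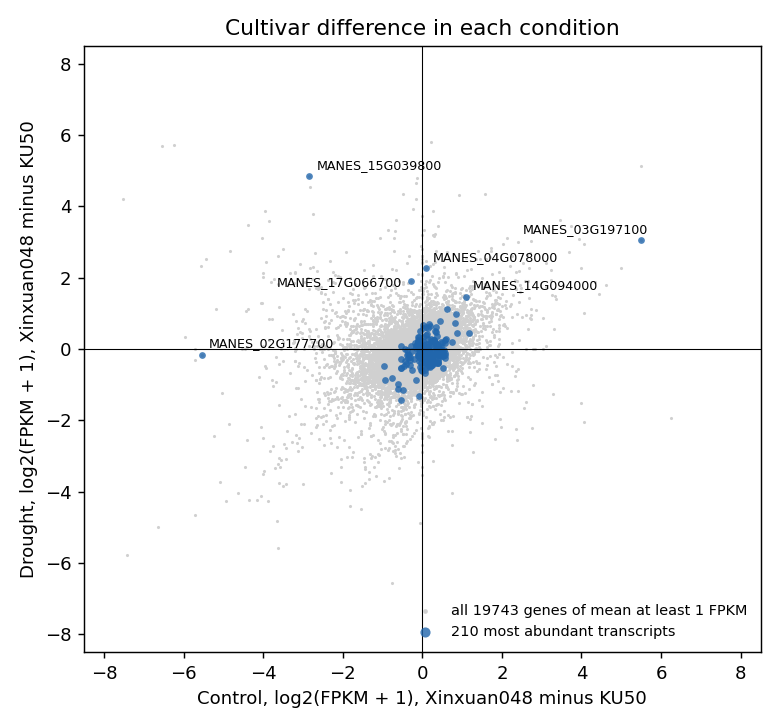
Xinxuan048 minus KU50 on the log2(FPKM + 1) scale in control (horizontal) and drought (vertical), with the 210 members in blue over all 19743 genes in grey. The members cluster near zero, with medians of 0.11 and -0.08, and the labelled tags are those over 10-fold apart across the libraries and MANES_14G094000.

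The last question was whether the cultivars' drought differences were alike. Across the 210 members the drought differences of KU50 and Xinxuan048, which share no library, had a Pearson's r of 0.670 and a Spearman's rho of 0.783, a description with no p. The drought difference was lower in Xinxuan048 than in KU50 for 144 members, against 44.1% of all genes. With upper-quartile scaling the number was 151, against 47.4% of all genes, and with TMM it was 151, against 47.7%. When FPKM were scaled to equal totals over the genes that are not members, the number was 162, against 55.4% of all genes. Those totals include the short loci, which took 8.96% of the FPKM sum in Xinxuan048 drought. Their part in the 162 was not tested. Differences of at least 1 on the log2 scale between the cultivars were rare: 3 members were lower in Xinxuan048 by that much (background 3.47%) and 4 higher (background 6.16%). No interaction of cultivar and drought can be tested with 1 library per group.

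Opposite directions occurred in 33 members, and most were small. This count rests on the sign of each difference and depends on the scaling. With TMM 179 members were lower in both cultivars and 15 higher in both, against 143 and 34 as deposited, so fewer went opposite ways. Of the 33 as deposited, 24 were higher under drought in KU50 and lower in Xinxuan048 (background 8.13%), with median differences of 0.15 and -0.31. The other 9 were lower in KU50 and higher in Xinxuan048 (background 13.6%), with medians of -0.23 and 0.04. MANES_15G039800, on chromosome 15 from 2994603 to 2995210, had the largest contrast. KU50 had 824 FPKM (control) and 19.7 (drought), and Xinxuan048 had 114 and 592. High and low libraries thus crossed, with drought differences of -5.31 in KU50 and 2.37 in Xinxuan048. Its mean reached 300 FPKM through its high libraries, KU50 control and Xinxuan048 drought. MANES_02G177700, on chromosome 2 from 14270507 to 14271550, was a member through 1 library. KU50 had 1124 FPKM (control) and 41.6 (drought), and Xinxuan048 had 23.1 and 37.3. MANES_03G082900, on chromosome 3 from 13287772 to 13290362, was at 473 FPKM (control) and 907 (drought) for KU50, and at 447 and 366 for Xinxuan048, so that KU50 drought stood apart from the other 3 libraries. Its mean drought difference was 0.32 as deposited and -0.04 under TMM scaling.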

How the data were processed

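The authors deposited 1 FPKM value per gene and library for 4 libraries of leaf RNA, per the file headers. The submitters' processing notes name TopHat2 2.0.12 and Cufflinks, without roles or settings. The Cufflinks version, genome build and annotation are not given in the sources used here. Deposited start positions reach 0, and 87.0% of the spans under 300 bases are multiples of 3 when taken as end minus start, so starts were raised by 1 to count from 1. The position of 1 locus, damaged in 1 file, was taken from another library. A gene absent from a file was set to 0 FPKM. Chromosome numbers were read from the tags.

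Values were analysed as log2(FPKM + 1) without rescaling, for the 19743 genes whose mean reached 1 FPKM. The shared drought and cultivar effects came from limma (version 3.58.1, R 4.3.3) fitted to all 4 libraries, with cultivar and condition as additive terms and a variance trend. Two-sided p-values were Benjamini-Hochberg adjusted over all genes tested. With 1 residual degree of freedom, the p-values set the responses of the cultivars against their difference and a variance shared across genes (2.99 prior degrees of freedom), and do not measure the spread between plants. A single cultivar or condition allows no test. TMM was computed on FPKM, trimming 30% of ratios and 5% of levels at each end. Alternatives were upper-quartile, TMM and total scaling, scaling on genes that are not members, other pseudocounts, filters and membership limits. Background percentages are over the 19743 genes.

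The members and lists were chosen with earlier results of these data known. Planned lists by gene description were not applied, since no tag has one. The rule for named members took the highest 2 by mean and 2 per direction in each comparison: mean drought difference, each cultivar, each condition, common cultivar difference and difference of responses. Python 3.11.15 and matplotlib 3.10.9 made the figures.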

Additional observations from a re-analysis of the deposited data

Results flagged for a closer look

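Opposite drought directions in the cultivars drew attention. As deposited, 24 members (11.4%, background 8.13%) were higher under drought in KU50 and lower in Xinxuan048. The reverse held for 9 (4.29%), a share below the background of 13.6%. Fewer members went opposite ways with TMM. The difference between cultivars was not tested for any of them, as a response comes from a single pair of libraries. Among the members named by tag, MANES_15G039800 differed by 7.68 on the log2 scale, as Xinxuan048 minus KU50, and MANES_02G177700 by 5.39. MANES_03G082900 differed by -1.22, MANES_13G092100 by -0.89 and MANES_04G095400 by -0.72. Some members not named by tag also went opposite ways and differed by more than the last of these.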

How the results depend on the processing

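No paired analysis was possible because, with 1 library per group, replicate numbers pair no samples beyond the cultivar term already in the fit. Leaving out a library leaves no residual degree of freedom and was not run. The depth of the libraries is unknown. The count of members with a shared drought effect, 0 as deposited, was 3 with upper-quartile scaling (1.43% of all genes passed), 7 with TMM (1.91%), 27 with a filter at a mean of 5 FPKM (5.29%), 12 in the fit on numbered tags of at least 500 bases (3.44%) and 1 with members from 200 FPKM (0.0456%); it was 0 under the other 8 alternatives, and the count for cultivar was 0 under all 13. The median drought differences of members, -0.354 in KU50 and -0.653 in Xinxuan048, stayed negative: -0.608 and -0.95 with upper-quartile scaling, -0.696 and -1.04 with TMM, -0.297 and -0.624 with equal totals, -0.521 and -0.957 with equal non-member totals, -0.699 and -0.996 with members from 1000 FPKM, -0.236 and -0.459 with members from 200 FPKM, -0.336 and -0.626 with members chosen in the other cultivar, and -0.637 in Xinxuan048 with a pseudocount of 10. The share of members higher in both cultivars, 16.2%, was 9.52% with upper-quartile scaling and with equal non-member totals, 7.14% with TMM and 9.62% with members from 1000 FPKM. The share higher in Xinxuan048 drought, 38.6%, was 25% with members from 1000 FPKM. The difference in share of FPKM, -10.5 points in KU50 and -15.5 in Xinxuan048, was -10.8 and -14.0 against numbered tags of at least 500 bases, -8.73 and -12.3 with members from 1000 FPKM, -10.2 and -16.0 from 200 FPKM, and -6.15 and -9.14 without the 10 members of highest mean. Mean drought differences reversed for MANES_02G133200, to -0.16 with upper-quartile scaling and -0.25 with TMM, and for MANES_03G082900, to -0.0415 with TMM. The cause of these shifts was not tested, except that other membership limits change which genes are counted.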
